A study of Mus musculus with 6 samples.

Results

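The 10 genes described here encode the core of the RNA polymerase I transcription machinery. They were taken by name (Polr1a, Polr1b, Polr1c, Polr1d, Polr1e, Rrn3, Ubtf, Taf1a, Taf1c and Taf1d), and all 10 were found among the 55416 genes of the count files. RNA was measured by sequencing in 6 libraries of CD3+ T cells from spleens of wild-type C57BL/6 mice that carried a graft. CD3 is the signalling complex of the T cell receptor. 3 libraries came from isograft recipients, whose graft was genetically identical to them, and 3 from allograft recipients, whose graft was not. Both groups of cells were held in serum-containing medium with antibiotics before RNA extraction. The sources used here do not give the grafted organ, donor strain, age, time after grafting or length of culture. Nor do they state that each library is a mouse of its own, so a p-value here reflects only library-to-library spread, some of which may be technical.

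RNA polymerase I works in the nucleolus and makes a single transcript, the precursor of the large ribosomal RNAs. Its promoter is bound by the upstream binding factor encoded by Ubtf and by selectivity factor SL1, a complex of the TATA-binding protein with the products of Taf1a, Taf1b, Taf1c and Taf1d. The product of Rrn3 (also called TIF-IA) bridges the polymerase to this assembly and is a control point for growth signals. Resting lymphocytes make few ribosomes and raise rRNA synthesis when they are activated and grow.

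Library totals ran from 30066137 to 37821738 counts, and each of the 10 genes had 312 to 22300 counts in every library. Levels below are CPM (counts scaled to library size with TMM factors, a correction for library composition), given per library or as mean ± SD (n = 3). Log2 fold changes are allograft minus isograft, with the SE, from edgeR's quasi-likelihood test over 14926 genes. Genes passed at a Benjamini-Hochberg adjusted p under 0.05. Of all genes tested, 57.8% passed, 28.7% as higher and 29.1% as lower in allograft libraries. With total counts in place of TMM, 2973 genes rose and 6093 fell, against 4283 and 4349, and the median log2 fold change over all genes shifted by -0.22. The T cell label was checked on 16 markers, all detected, whose summed level was 2263 to 2352 CPM in isograft and 1741 to 1921 CPM in allograft libraries (5 rose, 8 fell). Among them Cd4 was lower in allograft libraries (199 to 233 and 66.2 to 76.2 CPM), as was Cd247 (355 to 398 and 144 to 152 CPM). Of the CD8 genes, Cd8a was higher (67.0 to 70.5 and 76.6 to 89.6 CPM) and Cd8b1 lower (140 to 160 and 95.6 to 109 CPM). Zap70 was higher (72.9 to 80.7 and 169 to 186 CPM). The 10 B cell markers were all detected too and summed to 1352 to 1457 and 1629 to 1780 CPM (4 rose, 4 fell), so the fraction held B cell transcripts in both groups. The difference in the sum was about the size of the rise in Fcer2a, at 52.0 to 53.9 and 352 to 392 CPM, while Cd79a (89.4 to 115 and 60.8 to 63.6 CPM) and Cd79b (141 to 156 and 79.3 to 81.8 CPM) fell. Of 6 dendritic markers, 5 were tested and 1 rose, Zbtb46 (13.1 to 14.2 and 55.2 to 61.4 CPM), which carried the change of their sum from 31.9 to 33.9 CPM to 74.2 to 79.2 CPM. Of 5 NK markers 1 rose, Eomes (10.7 to 14.5 and 31.5 to 40.6 CPM), and the sums were 35.0 to 38.2 and 58.0 to 64.6 CPM. Myeloid markers summed to 86.8 to 92.2 and 63.1 to 69.5 CPM (0 rose and 3 fell of 7 tested), and plasma cell markers to 106 to 116 and 99.7 to 111 CPM (2 rose and 1 fell of 5 tested). The stromal and endothelial sum of 239 to 248 and 102 to 119 CPM was nearly all Pecam1, which fell, with the other 4 markers under 1 CPM in every library. The 5 erythroid markers, each under 1 CPM in every library, summed to 0.765 to 1.37 and 0.818 to 1.25 CPM. The part of these other cells, and of the mix of T cells, in the results below was not tested. In bulk RNA fewer cells of a type and less RNA per cell cannot be told apart.

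The promoters of 3 of the genes are printed because Polr1b and Polr1a had the largest changes and Rrn3 is the factor that responds to growth signals. They are the RefSeq bases before the transcription start on GRCm38.p6, plus strand, 5′ to 3′, and CACGTG, an E-box that MYC and MAX among other factors bind, is in capitals. Polr1b spans chr2:129100746-129100969 (224 bases, ending before the start of the RefSeq gene interval), Polr1a chr6:71908803-71909052 and Rrn3 chr16:13780449-13780698.
Polr1b: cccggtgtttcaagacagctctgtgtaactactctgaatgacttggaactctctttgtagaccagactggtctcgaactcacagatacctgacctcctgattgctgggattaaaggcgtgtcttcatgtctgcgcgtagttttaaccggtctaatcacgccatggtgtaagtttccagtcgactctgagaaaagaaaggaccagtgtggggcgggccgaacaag
Polr1a: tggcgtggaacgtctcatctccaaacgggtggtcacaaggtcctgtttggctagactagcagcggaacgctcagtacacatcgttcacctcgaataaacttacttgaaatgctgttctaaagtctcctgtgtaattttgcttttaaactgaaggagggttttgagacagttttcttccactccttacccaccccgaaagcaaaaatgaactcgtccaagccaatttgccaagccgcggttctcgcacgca
Rrn3: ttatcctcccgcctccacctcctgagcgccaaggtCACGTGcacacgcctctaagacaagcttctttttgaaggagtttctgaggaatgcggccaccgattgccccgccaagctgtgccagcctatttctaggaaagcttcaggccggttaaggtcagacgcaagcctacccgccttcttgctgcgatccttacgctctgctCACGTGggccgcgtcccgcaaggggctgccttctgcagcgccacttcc

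CACGTG reads the same on both strands, and no other motif was searched. Rrn3 held it 2 times, beginning 215 and 48 bases before the start. RefSeq promoters of the same length, 250 bases before each start, were found for all 10 genes in 17 windows, and the only one with a match was that of Rrn3. That is 5.88% of the 17 windows, and across all 32851 RefSeq windows 6.02% held it. Outside the 10 genes, the window of Polr1g, another RNA polymerase I subunit gene, held 1 match at position -218 from the start. These letters describe the sequence only, and binding was not measured.

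Transcripts of 9 of the 10 genes rose in allograft libraries, and 0 fell, where 28.7% of all genes rose and 57.8% passed in either direction. The largest rises were in Polr1b, Polr1a and Polr1e, which encode subunits found in RNA polymerase I alone, at 5.26, 3.32 and 2.98 times the isograft mean. The 2 polymerase subunit genes shared with RNA polymerase III, Polr1c and Polr1d, and the initiation factor genes Rrn3, Ubtf, Taf1a and Taf1d rose by 1.51 to 1.99 times. Taf1c, an SL1 subunit gene, differed by less than the spread between libraries. The median log2 fold change of the 10 genes was 0.74, against -0.01 over all genes tested. At least 2-fold, 3 of the 10 rose, against 10.1% of all genes. The groups did not overlap, with allograft libraries higher, for 9 of the 10 genes and for 31.3% of all genes (63.3% in either direction).

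**Figure D1:**
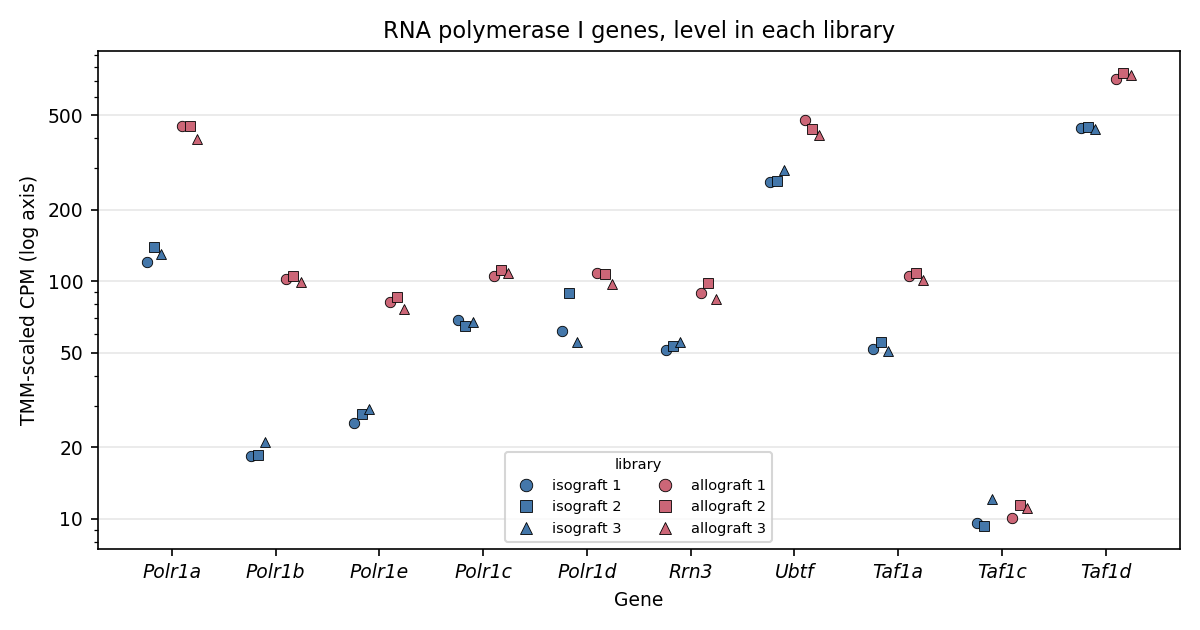
TMM-scaled CPM (log axis) of the 10 genes in each of the 6 libraries, with 1 symbol per library. In 9 genes every allograft library (red) lies above every isograft library (blue), and the groups overlap for Taf1c.

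Polr1a encodes the largest subunit, which forms the catalytic centre together with the product of Polr1b (chromosome 6, 71886037 to 71961919, GRCm39, ENSMUSG00000049553). It stood at 120.4, 139.7 and 130.2 CPM in isograft replicates 1, 2 and 3 and at 449, 452 and 397 CPM in allograft replicates 1, 2 and 3. Every allograft library lay above every isograft library, and the gap exceeded the range within either group. The log2 fold change was 1.73 ± 0.08 (edgeR adjusted p = 4.7e-13).

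Polr1b, the gene of the second-largest catalytic subunit (chromosome 2, 128942915 to 128968514, ENSMUSG00000027395), was at 18.4, 18.6 and 21.2 CPM in isograft libraries and at 102, 105 and 99.2 CPM in allograft libraries. The log2 fold change was 2.40 ± 0.08 (edgeR adjusted p = 1.3e-14), the largest of the 10, and 98.7% of all genes tested had a log2 fold change no higher. The promoters of Polr1a and Polr1b printed above have no CACGTG.

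Polr1e encodes a peripheral subunit (PAF53) that pairs with the product of Polr1g and takes part in initiation and elongation (chromosome 4, 45018583 to 45036565, ENSMUSG00000028318). Its levels were 25.2, 27.7 and 29.1 CPM in isograft libraries and 81.7, 85.9 and 76.7 CPM in allograft libraries, again without overlap. The log2 fold change was 1.57 ± 0.08 (edgeR adjusted p = 4.0e-12).

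Polr1c and Polr1d encode the pair of assembly subunits that RNA polymerase I shares with RNA polymerase III, the enzyme of transfer RNAs. Variants of both human genes cause Treacher Collins syndrome, a disorder of facial development. Polr1c (chromosome 17, 46554846 to 46558980, ENSMUSG00000067148) was at 68.5, 65.1 and 67.1 CPM in isograft libraries and 105, 112 and 109 CPM in allograft libraries. The groups were tight and apart, and the log2 fold change was 0.70 ± 0.07 (edgeR adjusted p = 5.1e-08).

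Polr1d (chromosome 5, 147013860 to 147048407, ENSMUSG00000029642) was at 62.0, 89.5 and 55.6 CPM in isograft libraries and at 108, 107 and 97.7 CPM in allograft libraries. Isograft replicate 2 lay well above the other two isograft libraries and close to the lowest allograft library. The coefficient of variation was 26.1% in isograft libraries, against 1.14 to 15.0% for the other 9 genes. The log2 fold change was 0.60 ± 0.17 (edgeR adjusted p = 0.016). This call was lost without isograft replicate 1 (log2 fold change 0.52, adjusted p = 0.060), allograft replicate 1 (0.56, adjusted p = 0.12) or allograft replicate 3 (0.63, adjusted p = 0.056) and with total counts (0.37, adjusted p = 0.084).

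Rrn3 (chromosome 16, 13598572 to 13632703, ENSMUSG00000022682), whose promoter carries both E-boxes shown above, was at 51.2, 53.6 and 55.7 CPM in isograft libraries and at 89.3, 98.0 and 84.1 CPM in allograft libraries. The groups did not overlap, and the log2 fold change was 0.76 ± 0.08 (edgeR adjusted p = 7.3e-08). Ubtf (chromosome 11, 102195386 to 102210568, ENSMUSG00000020923), whose product also keeps active ribosomal gene repeats open, was at 262, 265 and 295 CPM in isograft libraries and at 479.6, 439.9 and 413 CPM in allograft libraries. Its log2 fold change was 0.70 ± 0.08 (edgeR adjusted p = 1.5e-07), from a higher isograft level than that of the polymerase subunit genes on the CPM scale, which is not corrected for length.

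The SL1 genes did not move alike. Taf1a (chromosome 1, 183170325 to 183191020, ENSMUSG00000072258) was at 51.8, 55.7 and 51.0 CPM in isograft libraries and at 105, 109 and 101 CPM in allograft libraries, a log2 fold change of 0.99 ± 0.07 (edgeR adjusted p = 6.5e-10). Taf1d (chromosome 9, 15217510 to 15228287, ENSMUSG00000031939) was at 443, 447 and 437 CPM in isograft libraries and at 714, 751 and 737 CPM in allograft libraries. Both were without overlap between groups, and the log2 fold change of Taf1d was 0.73 ± 0.07 (edgeR adjusted p = 1.1e-08).

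Taf1c (chromosome 8, 120324610 to 120331961, ENSMUSG00000031832), the lowest of the 10 in counts, was at 9.58, 9.32 and 12.1 CPM in isograft libraries and at 10.1, 11.5 and 11.1 CPM in allograft libraries. Isograft replicate 3 was the highest of all 6 libraries, and the groups overlapped. Its log2 fold change was 0.08 ± 0.13 (95% interval -0.20 to 0.35, edgeR adjusted p = 0.64), and with total counts it was -0.14 (adjusted p = 0.37). The interval leaves room for a small change in either direction. It ends below the log2 fold change of each of the other 9 genes, though it overlaps the interval of Polr1d (0.21 to 0.98). Of the exon bases of Taf1c, 16.7% are shared with the antisense gene Dnaaf1, and of those of Taf1d 13.6% are shared with 12 other annotated genes. By the counting tool's defaults, fragments that overlap more than 1 gene were not counted, so these levels may be low.

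**Figure D2:**
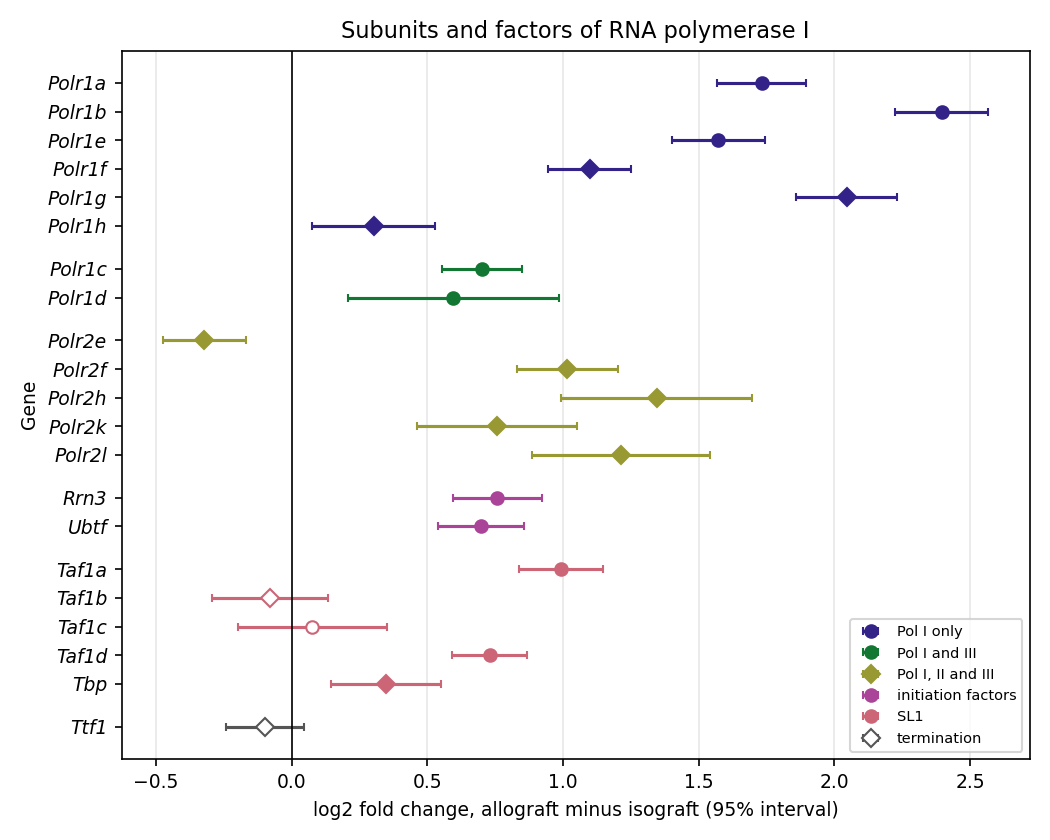
Log2 fold change (allograft minus isograft, x axis) with its 95% interval for the 10 genes (circles) and the 11 other genes of the RNA polymerase I apparatus (diamonds), grouped by role, with open symbols for genes that did not pass. Polr1b at 2.40 and Polr1g at 2.05 lie farthest right, and Polr2e at -0.32 is the only gene that fell.

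The remaining genes of the apparatus, a list of 11 that were all tested, gave 8 rises and 1 fall, with a median log2 fold change of 0.76. Among genes of RNA polymerase I alone, Polr1g, the partner of Polr1e, was at 50.6 ± 6.24 CPM in isograft and 209 ± 13.7 CPM in allograft libraries (2.05 ± 0.09, edgeR adjusted p = 4.2e-13). Polr1f, whose product contacts that of Rrn3, went from 69.6 ± 4.12 to 149 ± 4.91 CPM (1.10 ± 0.07, edgeR adjusted p = 1.3e-10). Polr1h, the subunit that helps cleave and release RNA, differed little, at 11.9 ± 0.354 against 14.6 ± 0.279 CPM (0.30 ± 0.11, edgeR adjusted p = 0.022). That call was lost under 7 of 16 alternative analyses, with log2 fold changes of 0.08 to 0.32 over all of them. The subunits of RNA polymerase I alone thus spanned 0.30 to 2.40 on the log2 scale.

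The subunits common to RNA polymerases I, II and III were split. Polr2f (1.02 ± 0.09), Polr2h (1.35 ± 0.17), Polr2k (0.76 ± 0.14) and Polr2l (1.21 ± 0.16) rose, while Polr2e fell from 75.2 ± 2.96 to 60.2 ± 1.85 CPM (-0.32 ± 0.07, edgeR adjusted p = 0.00085). Polr2h, Polr2k and Polr2l were at 2.88 to 6.92 CPM in isograft libraries. Copies of at least 90% identity cover 46.8% of the longest Polr2h transcript, 50.4% of that of Polr2k and 23.2% of that of Polr2l, and fragments that map to several places were left out, so these levels are uncertain. The same limit applies to Ttf1 (36.8%), Polr1f (22.9%), Polr1d (20.8%), Taf1b (19.1%), Taf1d (17.9%) and Polr2f (10.7%). For Tbp the share is 20.6%, but the matching genes include Pdcd2, an antisense gene at the same place. Pdcd2 overlaps 19.0% of the exon bases of Tbp, and fragments over both genes were not counted, so the level of Tbp may be low.

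In SL1, Taf1b did not pass at 32.8 ± 1.01 against 31.1 ± 4.95 CPM (-0.08 ± 0.10, 95% interval -0.29 to 0.14, edgeR adjusted p = 0.53). Tbp, which also serves the other polymerases, rose from 48.5 ± 7.45 to 61.9 ± 2.66 CPM (0.35 ± 0.10, edgeR adjusted p = 0.0045), a call lost with total counts (0.13, adjusted p = 0.29). Ttf1, whose product ends RNA polymerase I transcription at terminator elements, was at 165 ± 7.64 and 154 ± 3.61 CPM (-0.10 ± 0.07, edgeR adjusted p = 0.23). With total counts Taf1b (-0.30, adjusted p = 0.017) and Ttf1 (-0.32, adjusted p = 0.00035) passed as falls. Of the 5 SL1 genes, Taf1a, Taf1d and Tbp therefore rose and Taf1b and Taf1c did not pass.

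To compare levels between genes, CPM were divided by the exon length in kilobases. The lengths are the union of all annotated exons, so a gene with many rare exons has its level understated. In isograft libraries the order was Taf1d (49.4 ± 0.565 CPM per kilobase), Ubtf (41.8 ± 2.79), Polr1c (29.4 ± 0.744), Polr1d (22.7 ± 5.92), Taf1a (22.2 ± 1.06), Rrn3 (12.4 ± 0.525), Polr1a (10.96 ± 0.812), Polr1e (7.02 ± 0.504), Polr1b (3.34 ± 0.265) and Taf1c (2.96 ± 0.444). Polr1d and Taf1a differed by less than their spread, and so did Polr1b and Taf1c. In allograft libraries Polr1a rose from the seventh to the fifth place at 36.4 ± 2.59, level with Polr1d at 34.3 ± 1.93 within their spread. Rrn3 and Polr1e were level there at 21.0 ± 1.63 and 20.9 ± 1.18, while Polr1b (17.6 ± 0.499) stood well above Taf1c (3.12 ± 0.201). Polr1a, Polr1e and Polr1b, which rose most, were thus among the genes lowest per kilobase in isograft libraries, while Taf1c, the lowest, did not pass. The isograft level is also the base of the fold change, so level and fold change are not independent.

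**Figure D3:**
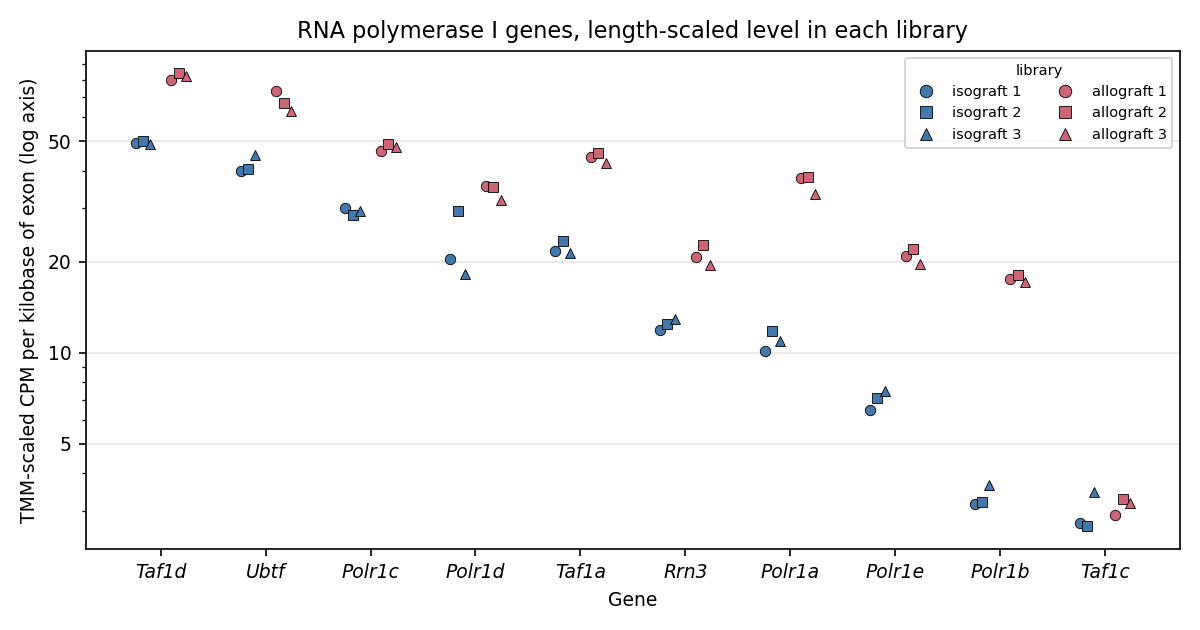
TMM-scaled CPM per kilobase of exon (log axis) in each library, with genes ordered by their isograft mean. Polr1a, Polr1e and Polr1b sit low in isograft libraries (blue, means of 10.96, 7.02 and 3.34) and lie closer to the other genes in allograft libraries (red), and Taf1c stays near 3 in both groups.

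Ratios of 2 genes within a library do not depend on how libraries are scaled. 14 such ratios of counts per kilobase were formed after the values above were seen, 9 of them with Polr1a as the common denominator. In 14 of 14 the groups did not overlap. The exact two-sided permutation test gave p = 0.10 for each (0.10 after Benjamini-Hochberg adjustment over the 14). That is the smallest value that 3 libraries against 3 allow, so the test cannot decide whether any ratio changed. The 9 ratios over Polr1a all carry its own rise and are not independent. How often the groups separate in ratios of other gene pairs was not tested. Among single genes, 63.3% did not overlap in either direction. The ratio of Polr1b to Polr1a was 0.312, 0.273 and 0.333 in isograft libraries and 0.466, 0.475 and 0.511 in allograft libraries, so Polr1b rose more than Polr1a in each comparison of libraries. The ratio of Polr1c to Polr1a fell from 2.69 ± 0.267 to 1.31 ± 0.104, that of Polr1d from 2.06 ± 0.419 to 0.943 ± 0.0169, and that of Rrn3 from 1.13 ± 0.0685 to 0.575 ± 0.0254. Polr1e stayed closest to Polr1a, at 0.642 ± 0.0386 and 0.574 ± 0.0177.

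The catalytic genes were set beside their counterparts in the other polymerases. Polr2a, the largest subunit gene of RNA polymerase II, was at 458 ± 58.9 and 409 ± 53.8 CPM (-0.16 ± 0.10, edgeR adjusted p = 0.19), and Polr3a, that of RNA polymerase III, at 43.6 ± 1.58 and 59.3 ± 3.01 CPM (0.45 ± 0.08, edgeR adjusted p = 5.7e-05). Polr2a passed as a fall with total counts (-0.38, adjusted p = 0.0014), when low-count genes were kept (-0.18, adjusted p = 0.032) and on leaving out allograft replicate 1 (-0.27, adjusted p = 0.017). The ratio of Polr1a to Polr2a per kilobase was 0.176, 0.159 and 0.175 in isograft libraries and 0.574, 0.666 and 0.659 in allograft libraries. The ratio of Polr1a to Polr3a was 1.41, 1.53 and 1.45 against 3.94, 3.66 and 3.17. For the second-largest subunits, Polr1b to Polr2b went from 0.105 ± 0.00827 to 0.462 ± 0.0443 and Polr1b to Polr3b from 0.257 ± 0.0174 to 0.822 ± 0.0874. Each of these 4 ratios was higher in every allograft library than in any isograft library. The exact permutation p of 0.10 given above is the floor of that test and does not decide them.

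**Figure D4:**
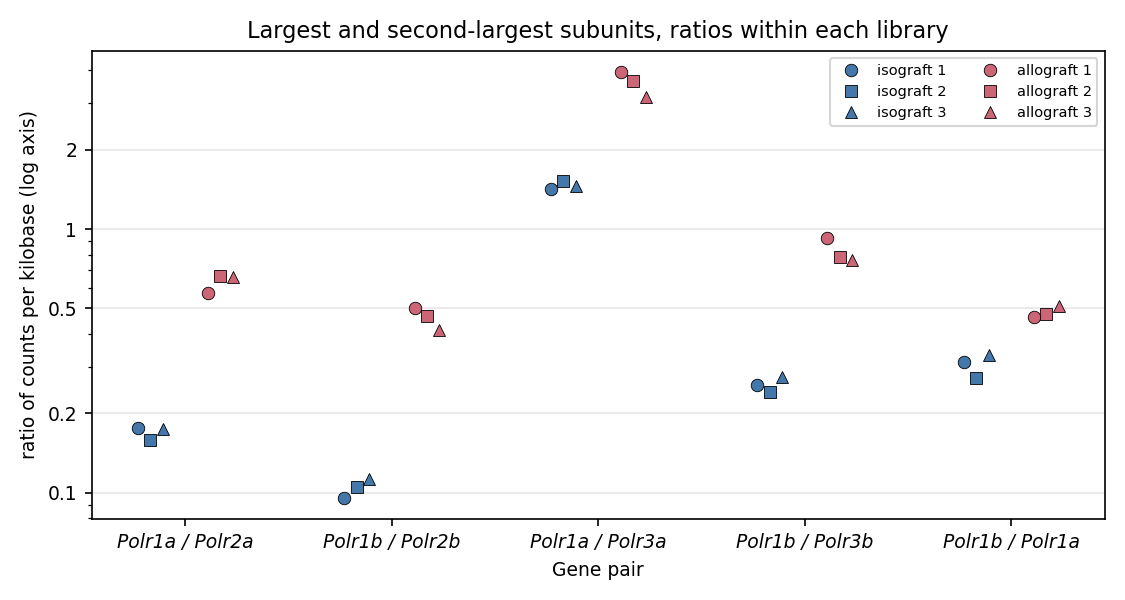
Ratio of counts per kilobase (log axis) of catalytic subunit genes within each library, for RNA polymerase I against II and III and for Polr1b against Polr1a. In all 5 pairs the allograft libraries (red) lie above the isograft libraries (blue), for Polr1a to Polr2a at 0.574 to 0.666 against 0.159 to 0.176.

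The 8 subunit genes of RNA polymerase II alone, Polr2a and Polr2b included, gave 4 rises (Polr2b, Polr2c, Polr2d and Polr2m) and 1 fall (Polr2g), with a median log2 fold change of 0.19. Polr2d had the largest of these, 0.97 ± 0.10, and with total counts Polr2b (0.04), Polr2c (0.13) and Polr2m (0.12) no longer passed. Among 21 subunits and factors of RNA polymerase III 12 rose and 3 fell, with a median of 0.27. Polr3d rose from 61.8 ± 3.97 to 231 ± 22.9 CPM (1.91 ± 0.08, edgeR adjusted p = 3.0e-13) and Polr3e from 31.1 ± 1.18 to 76.4 ± 3.78 CPM, both subunit genes of RNA polymerase III. The 3 that fell were Polr3gl, Gtf3c1 and Maf1. The medians of the 10 genes (0.74) and of the 11 others of RNA polymerase I (0.76) were higher than both, and these lists were not tested against each other. The 11 include Polr2e, Polr2f, Polr2h, Polr2k and Polr2l, which RNA polymerases II and III share but which their lists leave out. The list of RNA polymerase III also holds the gene of its repressor, Maf1. These medians therefore depend on how the lists were drawn.

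Genes that act on the ribosomal genes with RNA polymerase I were read from 2 further lists. Of 10 nucleolar cofactors 8 rose, 1 fell (Supt4a) and 1 did not pass (Supt5), with a median of 0.91. Nolc1, a nucleolar phosphoprotein gene, went from 436 ± 7.30 to 2186 ± 69.1 CPM (2.33 ± 0.07, edgeR adjusted p = 2.6e-15). Ddx21, an RNA helicase gene, rose by 1.77 ± 0.07 and Ncl, the gene of nucleolin, by 1.53 ± 0.08. Of 11 genes of ribosomal gene chromatin and silencing 6 rose, 4 fell and 1 (Sirt1) did not pass, with a median of 0.37. Mybbp1a, a nucleolar corepressor gene, went from 305 ± 22.9 to 1009.6 ± 105 CPM (1.73 ± 0.08, edgeR adjusted p = 1.5e-12), Rrp8, a gene of a nucleolar silencing complex, rose by 1.27 ± 0.08, and Kdm2b, a histone demethylase gene, by 0.88 ± 0.10. The 4 that fell were Baz2a, Kdm2a, Sirt7 and Phf8.

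**Figure D5:**
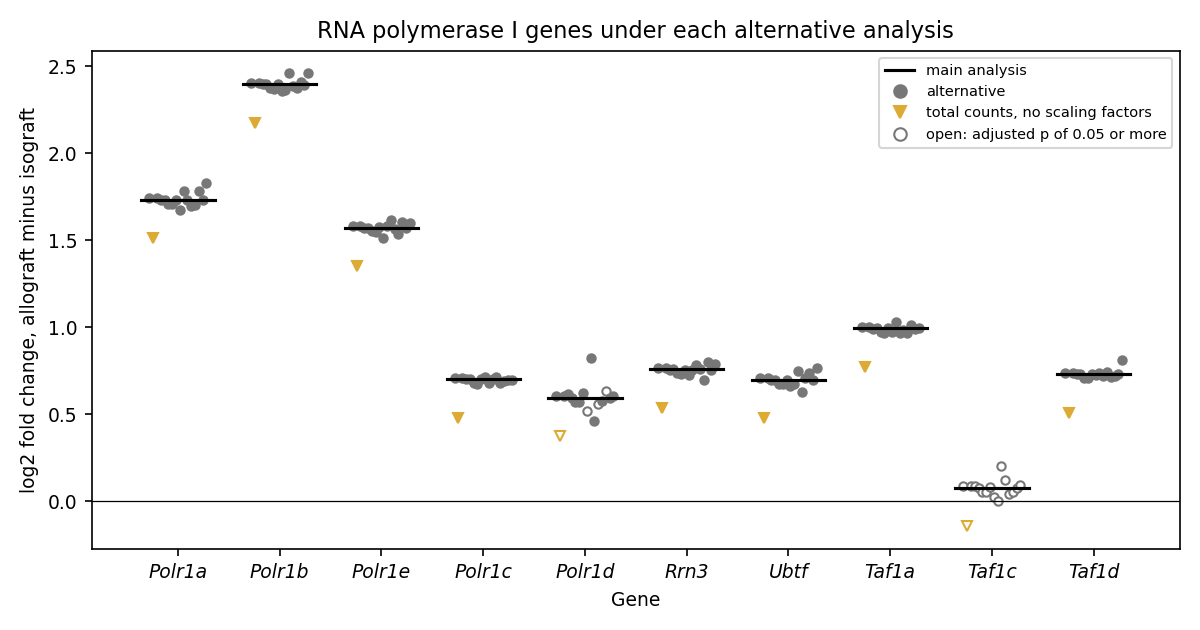
Log2 fold change (allograft minus isograft, y axis) of the 10 genes in the main analysis (black lines) and under 16 alternative analyses (points, open where the adjusted p was 0.05 or more). Total counts (triangles) give the lowest value for each gene, from 2.18 for Polr1b to -0.14 for Taf1c.

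The order of the 10 log2 fold changes was led by Polr1b, Polr1a and Polr1e under all 16 alternative analyses, with Polr1b at 2.18 to 2.46, Polr1a at 1.51 to 1.83 and Polr1e at 1.35 to 1.62. The next gene, Taf1a, ranged from 0.77 to 1.03. The 10 genes together held 36765 to 47497 counts in isograft and 59810 to 70082 counts in allograft libraries, or 1112 to 1171 and 2126 to 2271 CPM.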

How the data were processed

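RNA-seq libraries of CD3+ T cells (3 isograft, 3 allograft) were used as deposited. The deposited values are whole-number counts of fragments per Ensembl gene, which the authors made with featureCounts 1.6.0 over exons, Ensembl release 104 on GRCm39, after a HISAT alignment, per the file headers. GRCm38 and mm10 are the builds in the submitters' processing notes. The recorded command sets no strand and no multi-mapping option. The deposited exon length of each gene was used for levels per kilobase.

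Of 55416 Ensembl IDs, 52083 (94.0%) had a symbol. edgeR 4.0.16 (R 4.3.3) with filterByExpr, TMM and robust quasi-likelihood estimation tested 14926 genes holding 99.9% of the counts. SEs were derived from the F statistic and the fold change. Alternatives used RLE, total counts, DESeq2 1.42.0, limma-voom (limma 3.58.1), non-robust estimation, 2 filters, a replicate block, each library left out, fewer gene classes and a gene length offset. Near-identical transcripts were sought with BLAST+ 2.17.0 in a GRCm38 annotation, over at least 200 bases. Promoters are from RefSeq on GRCm38.p6, and coordinates of genes are GRCm39 from the files. The procedure was run on simulated data in which few genes changed, equally in both directions. That run does not bear on the choice of scaling in these data. Within groups, the chi-square per degree of freedom between libraries was 10.4 to 22.1, above sampling noise.

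The genes and lists were chosen with earlier results of these data known. Named genes are the 10, the 11 others of the apparatus and up to 3 of each further list with the smallest p. Polr2a, Polr2b, Polr2c, Polr3a, Polr3b, Polr3g, Polr3gl, Maf1, Gtf3c1, Baz2a, Smarca5, Kdm2a, Sirt7, Sirt1, Phf8, Supt4a and Supt5 were named after their values were seen. A list of 3 loci with ribosomal RNA-like sequence was not analysed here, and a few single-gene values are not reported here.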

Additional observations from a re-analysis of the deposited data

How the results depend on the processing

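Of the 10 genes, 9 rose and 0 fell under RLE scaling, DESeq2, limma-voom, non-robust estimation, both filters, the length offset and removal of immunoglobulin, hemoglobin and mitochondrial genes. With total counts 8 rose, and with 1 library left out 8 to 9 rose, Polr1d being the gene lost. Taf1c did not pass under any of the 16 alternatives and was negative with total counts (-0.14). Among genes that did not pass, leaving out 1 library moved Taf1b between -0.22 and 0.016 and Sirt1 between -0.073 and 0.040, Sirt1 was 0.034 with the length offset, and Supt5 was -0.033 with total counts. Sirt1 passed as a fall with total counts (-0.24), and Supt5 as a rise without allograft replicate 3 (0.26) and with the length offset (0.25). Over all genes, leaving out 1 library gave 3891 to 4134 rises and 4004 to 4315 falls. The replicate numbers gave no sign of pairing: deviations from the group means correlated at -0.06, 0.003 and -0.03 between same-numbered libraries, and 0 of 6 libraries correlated best with their own number. With 3 libraries per group this check cannot exclude a pairing. With the replicate block 9 of the 10 genes rose, and 4064 of all genes rose while 4152 fell. Taf1c rests on 312 to 389 counts per library, the fewest of the 10 genes in isograft and in allograft libraries.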

Other observations

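RNA polymerase III can carry either of 2 related subunits, encoded by Polr3g and Polr3gl, which were singled out after their values were seen. Polr3g was at 23.7, 25.6 and 28.7 CPM in isograft libraries and at 56.5, 65.4 and 55.5 CPM in allograft libraries (log2 fold change 1.19 ± 0.09, edgeR adjusted p = 1.5e-09). Polr3gl went the other way, from 55.1, 59.3 and 57.1 CPM to 31.7, 25.3 and 27.9 CPM (-1.01 ± 0.09, edgeR adjusted p = 9.0e-09). The groups did not overlap for either gene, and both calls held under all 16 alternative analyses. Maf1, the gene of a repressor of RNA polymerase III, fell from 79.6 ± 0.431 to 35.6 ± 3.89 CPM (-1.16 ± 0.08, edgeR adjusted p = 5.0e-10).

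Baz2a, the gene of the large subunit of the nucleolar remodelling complex that silences ribosomal genes, was lower in allograft libraries at 333 ± 6.41 against 500.0 ± 40.8 CPM (-0.59 ± 0.07, edgeR adjusted p = 9.2e-07), while Rrp8 was higher. Smarca5, on the same list of chromatin and silencing genes, also rose, from 308 ± 16.8 to 452 ± 30.9 CPM (0.55 ± 0.07, edgeR adjusted p = 2.2e-06). Sirt7, an activator of RNA polymerase I, fell like Baz2a, from 119 ± 4.22 to 90.5 ± 3.90 CPM (-0.39 ± 0.07, edgeR adjusted p = 8.1e-05), opposite to Polr1a and Polr1b.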
